A study of Oryza sativa Japonica Group and Oryza sativa Indica Group with 20 samples.

Results

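RNA of IR64 rice callus that had failed to regenerate (TF) was compared with RNA of IR64 callus that had regenerated (TS). IR64 is an indica cultivar, and callus is a mass of dividing plant cells without organs. The comparison rests on 2 of the 20 samples of the series, 1 RNA library a side, chosen by cultivar and culture stage from the labels. Both calli came from seeds put on a medium with the auxin 2,4-D at 2.5 mg/L and ended on the same regeneration medium, with the auxin NAA at 0.02 mg/L and the cytokinin BAP at 2 mg/L. The other RNA libraries, used here for reference, were the IR64 embryo (T0), newly induced callus (T1) and subcultured callus (T2), and the same 5 stages of the japonica cultivar Tainung 67 (TNG67). The series also has 10 bisulfite libraries, not used here. Not given in the sources used here are the number of calli behind a library, their time on the medium and how failure was scored.

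Regeneration of rice from callus is a change of hormone regime. Auxin keeps the cells dividing as callus, and a medium richer in cytokinin than in auxin allows some calli to form shoot meristems and green shoots, while others turn brown, form roots or stay as callus. Indica cultivars are known in general for regenerating less readily than japonica ones.

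The deposited values were FPKM, fragments scaled to gene length and to the mapped fragments of a library, for 54170 loci. The 22913 loci that reached 1 FPKM in 2 or more of the 10 libraries were compared, on the log2(FPKM + 1) scale, which understates the change of low loci. The files pair no names with their identifiers, and no identifier matched the RefSeq gene table used here. Loci are therefore described by level, stage, cultivar and chromosome, at most 2 in each direction are named, and the callus label could not be set against marker genes. Read depth was unknown. Summed FPKM was 668072 in TS and 667717 in TF, and 19804 and 20116 loci reached 1 FPKM. The IR64 embryo library stood apart, with a sum of 3792961.7 FPKM, of which 1 locus listed at exactly 3000000.0 held 79.1%. Without that locus the sum was 792961.7.

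The cultivar label of the failed callus was checked first, on loci that separated the other 8 libraries of the cultivars by at least 20-fold. At the 106 such loci high in TNG67, the median was 0.102 FPKM in IR64 TF, against 39.6 to 59.4 in the 5 TNG67 libraries. The median locus in IR64 TF stood at 0.169% of the TNG67 mean, and 3 of the 106 were above 5%. At the 23 loci high in IR64 the median was 45.6 FPKM in IR64 TF. By these loci the failed callus was IR64. IR64 TS was among the libraries that chose the loci, so they do not check its label. In the failed TNG67 callus 6 of the 23 IR64 loci were above 5% of the IR64 mean, and the highest was at 20.3 FPKM. The choice of these loci held the other TNG67 libraries to at most 5%, so they give no comparison.

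Failed callus differed from successful callus mainly by loci that were higher in it. In TF 613 loci were at least 4-fold higher than in TS, which is 2.68% of those compared, and 101 were at least 4-fold lower, or 0.441%. They are called TF-high and TS-high loci below. Most loci were close, with 87.2% within 2-fold and a median log2 difference of -0.08. With 1 library a side there is no p-value, and nothing here measures the spread between calli of one kind.

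Loci higher in failed callus were the larger group at every size of difference. At 2-fold the counts were 1976 higher and 958 lower in TF. At 8-fold they were 200 and 20. At 16-fold they were 71 and 2, at 32-fold 20 and 2, and at 64-fold 9 and 0. One of the 2 is LOC_Os01g52060, described below. Both counts depended on the pseudocount. With 0.1 FPKM in place of 1 they were 1170 and 418, and with 5 FPKM 215 and 25, so TF-high loci remained the larger group at 73.7% and 89.6% of those called.

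Other pairs of single libraries give a sense of scale. The median absolute log2 difference was 0.34 between TF and TS and 0.32 between TF and T2. It was 0.19 between TS and T2, and 0.27 between T2 and T1. Between IR64 TS and T2 5 loci passed 4-fold upwards and 17 downwards. From T2 to TF 592 loci passed it upwards and 141 downwards, and from T1 to T2 85 and 47. The IR64 callus that regenerated was thus close to the subcultured callus. The callus that failed lay apart from both, more clearly by the counts past 4-fold than by the median difference. In TNG67 the same comparison of TF with TS gave 556 loci higher and 138 lower.

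**Figure D1:**
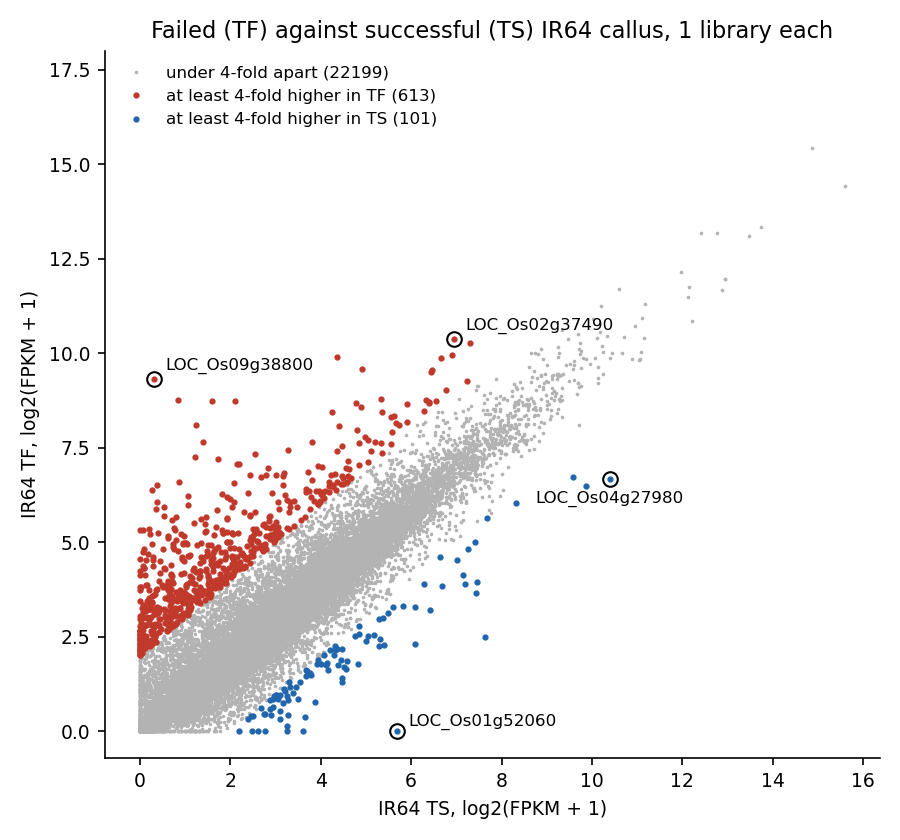
Level of each of 22913 loci in IR64 callus that regenerated (TS, horizontal axis) and IR64 callus that failed (TF, vertical axis), both as log2(FPKM + 1), 1 library each. Red points are the 613 loci at least 4-fold higher in TF, blue points the 101 at least 4-fold higher in TS, and circles mark the 4 named loci. Red points lie mostly at the left, where TS levels are low.

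Few of the differing loci were abundant in both calli. The 613 TF-high loci had a median of 1.52 FPKM in TS and 19.1 in TF, and 251 of them were below 1 FPKM in TS. Of these, 37 were listed at 0 in TS, 14 of them also at 0 in T1 and T2. At least 100 FPKM was reached in TF by 73. The 101 TS-high loci had a median of 16.6 FPKM in TS and 2.24 in TF. Of these, 33 were below 1 FPKM in TF, 7 were listed at 0 there, and 14 reached 100 FPKM in TS. A listed 0 can be a failed estimate, so no fold is given for single loci at 0, and the ratio that ranks or counts them depends on the pseudocount.

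The share of the transcript pool held by these loci shifted accordingly. The TF-high loci held 0.610% of the summed FPKM in TS and 5.39% in TF. In T1 and T2 they held 0.695% and 0.982%. The TS-high loci held 1.00% in TS, 0.964% in T1 and 1.03% in T2, and 0.120% in TF. The gap between TF and TS follows from how the loci were chosen. T1 and T2, which the ratio of TF to TS did not use, were nearer to TS than to TF in both groups. TS lay close to T2 over all loci too. In bulk RNA a change in the number of cells of a kind and a change in RNA per cell cannot be told apart.

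How often a locus differed depended on its level in the earlier calli, which the comparison did not use. Among 3311 loci with a T1 and T2 mean under 1 FPKM, 6.77% were TF-high and 0.0302% TS-high. From 1 to 10 FPKM the shares were 2.72% and 0.374%, and from 10 to 100 FPKM 1.14% and 0.583%. Among the 930 loci of 100 FPKM or more, 11 were TF-high and 13 TS-high. A locus needs at least 3 FPKM in TS to be TS-high on this scale, and TS lay close to T2, so loci under 1 FPKM could hardly be TS-high. Their split was largely fixed by that. The same limit bears on the lower loci of the band from 1 to 10 FPKM. From 10 to 100 FPKM TF-high loci were still the more frequent, with 94 against 48, and at 100 FPKM or more they were not.

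4 loci were taken as examples, in each direction the one with the largest ratio and the one with the largest difference in FPKM among those of at least 10 FPKM in the higher callus. LOC_Os02g37490 on chromosome 2 had the largest gain in FPKM. In IR64 it was at 283 FPKM in the embryo, 77.6 in T1, 72.6 in T2, 122 in TS and 1323 in TF, a log2 difference of 3.43 between TF and TS. The failed callus thus stood above the embryo and every other IR64 callus at this locus. In TNG67 it was at 2028 in the embryo, 128 in T1, 112 in T2, 493 in TS and 379.6 in TF, so that there the embryo was highest and the failed callus was slightly below the successful one.

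LOC_Os09g38800 on chromosome 9 had the largest ratio, but its value rests on 1 of the 2 rows the deposited table has for it. That row was listed at 7296 FPKM in the IR64 embryo, 636 in IR64 TF and 0 in the other 8 libraries. The first row was at 0.248 FPKM in IR64 TS and 0.702 in TF, and at 0.745 to 14 in TNG67. The example therefore shows a row present in 2 IR64 libraries and listed at 0 elsewhere, and the 2 rows do not show the same change. Such loci were few. Of the 613 TF-high loci 30 lay on more than 1 row, and in 3 of them most of the TF value came from a row listed at 0 in TS.

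Of the loci higher in successful callus, LOC_Os04g27980 on chromosome 4 had the largest loss in FPKM. It was listed at 0 in the IR64 embryo and stood at 490.4 FPKM in T1, 1044 in T2, 1342 in TS and 102 in TF, a log2 difference of -3.71. It was thus a callus transcript in IR64, lower in the failed callus than in the 3 others. In TNG67 it was listed at 0 in the embryo and stayed between 0.323 and 2.55 FPKM in the calli.

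LOC_Os01g52060 on chromosome 1 ranked first by (FPKM + 1) ratio in this direction, with 50.4 FPKM in IR64 TS and a listed 0 in IR64 TF. The IR64 embryo was at 42.7 FPKM, T1 at 17.1 and T2 at 16. In TNG67 the order was the reverse, with 3.22 FPKM in TS, 50.8 in TF and 285 in the embryo, and a listed 0 in T1 and T2. Of the calli on regeneration medium, the locus was thus higher in the successful one in IR64 and in the failed one in TNG67.

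**Figure D2:**
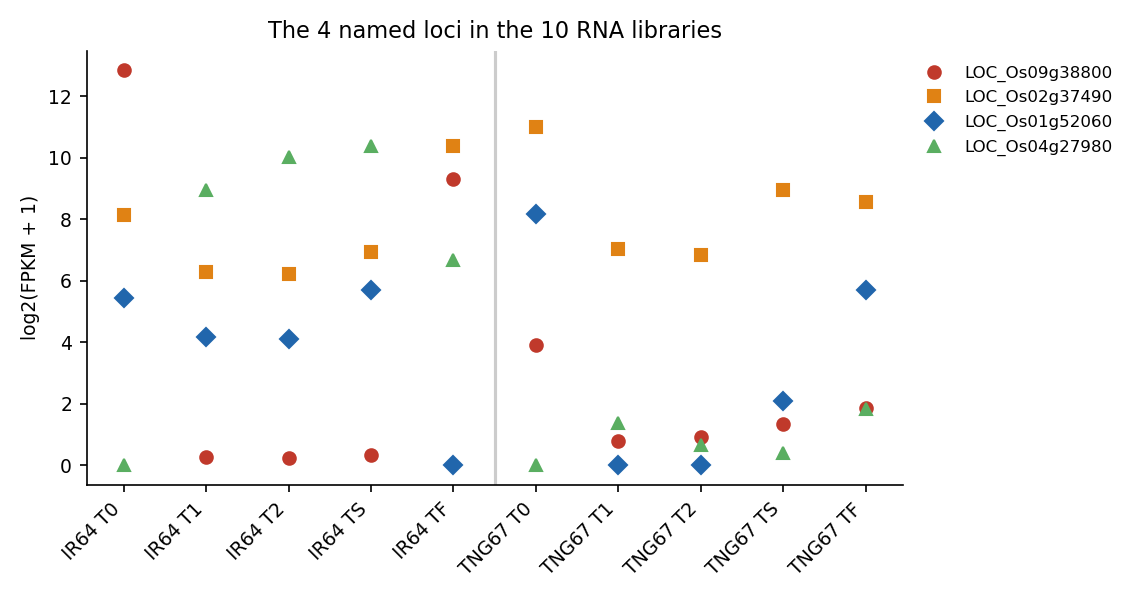
Level of the 4 named loci in each of the 10 RNA libraries, as log2(FPKM + 1), 1 point per library, with IR64 left and TNG67 right of the grey line. LOC_Os02g37490 is highest among the IR64 libraries in TF, and LOC_Os04g27980 stands at a listed 0 in the embryo, 1342 FPKM in TS and 102 in TF.

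Across the IR64 libraries the TF-high loci were low in the other calli and varied in the embryo. Their median was 9.25 FPKM in the embryo, 1.48 in T1, 2.15 in T2, 1.52 in TS and 19.1 in TF. The highest of the 5 IR64 values was in TF for 414 loci and in the embryo for 197, while the embryo was the lowest for 120. Over all compared loci the medians were 6.67 to 7.01 FPKM in these libraries, so by their median the TF-high loci lay below the typical locus in the other calli and somewhat above it in the embryo.

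The TS-high loci were high in the earlier calli too. Their median was 3.76 FPKM in the embryo, 13.2 in T1, 13.7 in T2, 16.6 in TS and 2.24 in TF. The lowest IR64 value was in TF for 55 loci and in the embryo for 40. The highest was in TS for 42, in T1 for 37, in T2 for 14 and in the embryo for 8. By their medians these loci stood high from T1 on and lower in the embryo, and their low level in TF follows from how they were chosen.

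**Figure D3:**
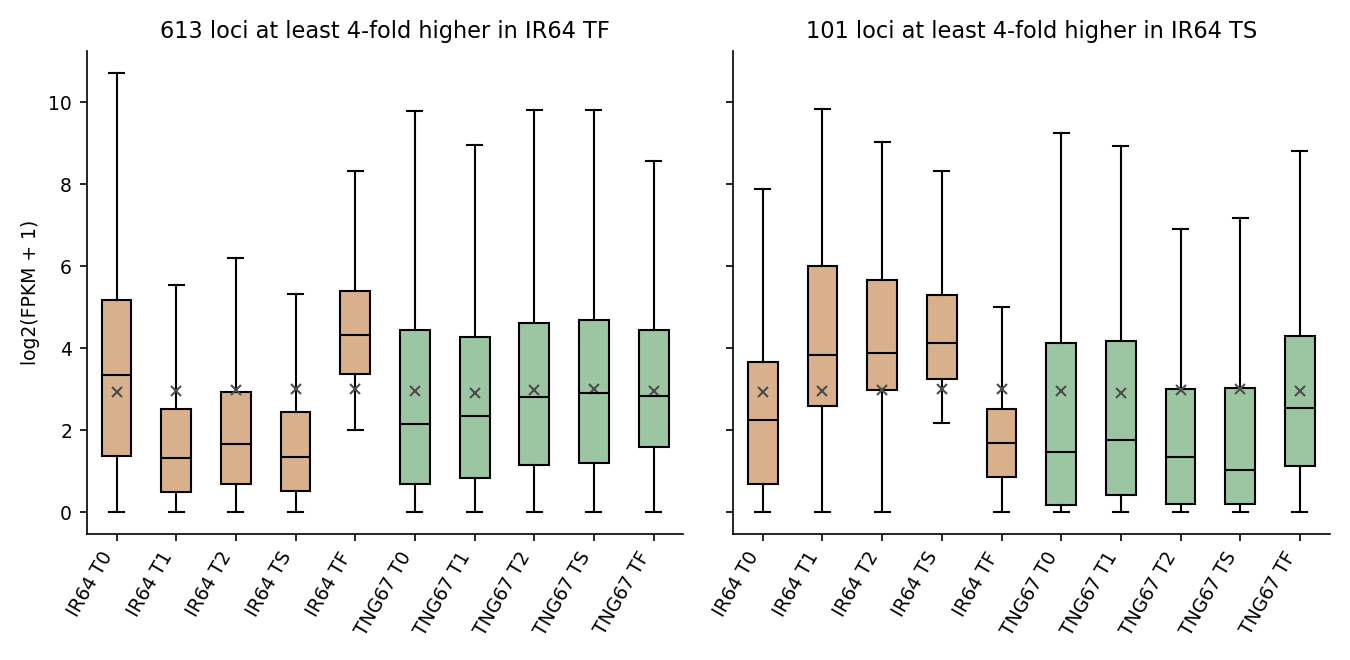
Level in the 10 RNA libraries of the 613 TF-high loci (left) and the 101 TS-high loci (right), as log2(FPKM + 1). Boxes span the quartiles with the median as a line, whiskers reach the last value within 1.5 box lengths, crosses mark the median over all 22913 loci, and brown is IR64, green TNG67. The TF-high loci are low in IR64 T1, T2 and TS, with medians of 1.48 to 2.15 FPKM, and the TS-high loci are low in most TNG67 libraries.

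The embryo, which the ratio of TF to TS did not use, was compared with T2 by the same 4-fold rule. Over all loci 7.99% were higher and 6.56% lower in the embryo. Of the TF-high loci 266 (43.4%) were higher in it and 35 (5.71%) lower. Of the TS-high loci 4 (3.96%) were higher and 43 (42.6%) lower. With T1 as the reference, 8.62% of all loci were higher and 6.87% lower, and the larger shares were 46.2% of the TF-high and 43.6% of the TS-high loci. A locus low in the IR64 calli could pass the filter on low values through the embryo or TNG67. Without that filter 266 of 651 TF-high loci (40.9%) were embryo-high, against 3.46% of all 54170 loci. Those include 24971 loci listed at 0 in both TF and TS. With a filter on TF and TS alone, a mean of at least 5 FPKM, the shares were 42.9% of TF-high and 8.37% of all loci. A TF-high locus can pass that filter through TF alone, so it does not match TF-high and all loci in their earlier level.

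The share grew stepwise with the difference between failed and successful callus. Loci within 2-fold were embryo-high in 5.67% of cases. The share was 28.8% for loci 2- to 4-fold higher in TF, 38.3% from 4- to 8-fold, 48.8% from 8- to 16-fold and 63.4% (45 of 71) at 16-fold or more. In the other direction the embryo-low share was 28.8% for loci 2- to 4-fold lower in TF, 39.5% from 4- to 8-fold and 55.0% (11 of 20) at 8-fold or more. Hence a locus was more often set apart in the embryo the more it differed between the calli.

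Level moved with these steps. The median in T2 was 7.27 FPKM for loci within 2-fold and 1.46 for those at least 16-fold higher in TF, and low loci have more room to be higher elsewhere. Within bands of level the difference in share was still seen. Among loci with a T1 and T2 mean under 1 FPKM, 47.3% of the TF-high loci and 13.5% of all loci were embryo-high. From 1 to 10 FPKM the shares were 43.3% and 7.62%, and from 10 to 100 FPKM 37.2% and 6.55%. Level moved in the other direction too, with a T2 median of 44.0 FPKM for loci at least 8-fold lower in TF. A locus needs at least 3 FPKM in T2 to be 4-fold lower in the embryo. The embryo-low shares were not split by level.

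The 266 embryo-high loci had a median of 34.4 FPKM in the embryo, 1.76 in T2, 1.15 in TS and 19.9 in TF. The other 347 TF-high loci had a median of 2.28 FPKM in the embryo, 2.70 in T2, 1.86 in TS and 18.9 in TF. The choice of these groups fixes TF above TS in both, and the embryo at least 4-fold above T2 in the first. The cutoff and the level in TS also set a lower limit on the level in failed callus. That this level was alike in both groups is therefore partly a result of the choice.

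TNG67 callus was the second reference. Between the T2 calli of the cultivars, 6.07% of all loci were TNG67-high and 6.46% TNG67-low by the 4-fold rule. Of the TF-high loci 202 (33.0%) were higher in TNG67 and 23 (3.75%) lower. Of the TS-high loci 2 (1.98%) were higher and 64 (63.4%) lower. Loci that differed between the IR64 calli therefore often differed between the cultivars too, with the failed IR64 callus on the side of TNG67. The level of the loci bears on both shares, as given below. Without the filter on low values the TNG67-high share was 31.0% of TF-high and 2.57% of all loci. With the filter on TF and TS alone it was 32.5% and 2.81%, again without a match in level.

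This share also rose with the difference. TNG67-high loci made up 4.83% of loci within 2-fold, 14.9% of those 2- to 4-fold higher in TF and 53.5% (38 of 71) at 16-fold or more. TNG67-low loci made up 75% (15 of 20) of those at least 8-fold lower in TF. In the lowest band of level, under 1 FPKM, the TNG67-high share was 34.4% of TF-high and 25.8% of all loci, so little of it was beyond the background there. From 1 to 10 FPKM it was 32.7% against 3.63%, and from 10 to 100 FPKM 28.7% against 1.71%. The TNG67-low shares were not split by level. TS-high loci had a T2 median of 13.7 FPKM and all loci one of 6.90, so TS-high loci had more room to be lower.

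**Figure D4:**
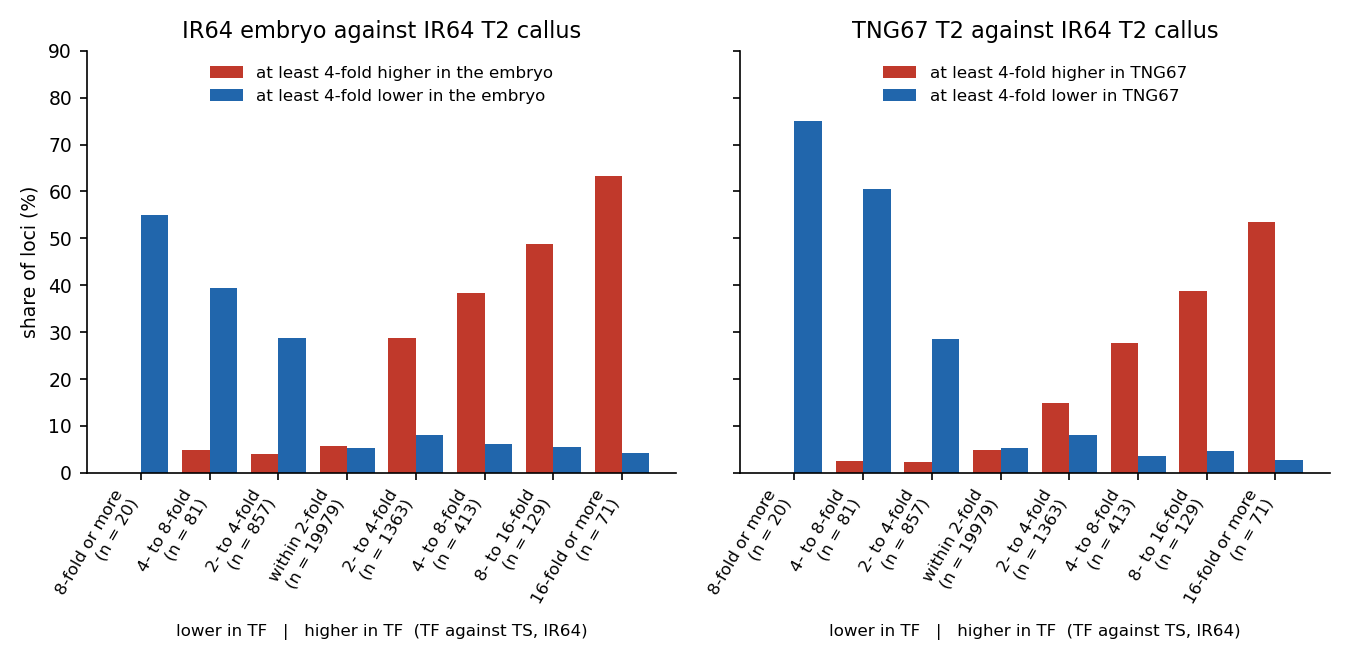
Share of loci (%) at least 4-fold higher (red) or lower (blue) in the IR64 embryo than in IR64 T2 callus (left), and in TNG67 T2 than in IR64 T2 callus (right), for loci grouped by their difference between IR64 TF and TS. The red share rises to 63.4% and 53.5% at 16-fold or more higher in TF, and the blue share to 55.0% and 75% at 8-fold or more lower. Both panels use the IR64 T2 library.

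In FPKM, the TF-high loci summed to 4075 in IR64 TS, 5912 in T2 and 36018 in TF. In TNG67 they summed to 22367 to 29691 in the 4 calli. By this sum failed IR64 callus lay above the 4 TNG67 calli, and the other IR64 calli far below them. The high sum in TF and the low one in TS follow from how the loci were chosen, and TS lay close to T2. By median these loci stood at 4.12 to 6.57 FPKM in the TNG67 calli, where all loci stood at 6.56 to 7.07. The 106 loci of the cultivar check stayed at a median of 0.102 FPKM in IR64 TF. Of the 613 loci 278 (45.4%) were high neither in the embryo nor in TNG67, against 87.7% of all loci. Their median was 1.99 FPKM in the IR64 embryo, 2.76 in T2, 2.05 in TS and 19.2 in TF, and it did not exceed 3.63 in any TNG67 library.

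Failed and successful callus of TNG67 shared no library with the IR64 pair, and are given here beside them. In TNG67 2.43% of all loci were TF-high and 0.602% TS-high. Of the IR64 TF-high loci 30 (4.89%) were higher and 16 (2.61%) lower, while 385 (62.8%) were within 2-fold, against 86.7% of all loci. The median log2 difference of these loci in TNG67 was -0.07, near the -0.08 of all loci, so they were apart more often than loci in general, with no shared direction.

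The IR64 TS-high loci leaned the other way in TNG67. Of the 101 loci 26 (25.7%) were at least 4-fold higher in TNG67 TF than TS and 2 were lower. Their median log2 difference was 0.84 in TNG67, with a median level of 1.05 FPKM in TNG67 TS and 4.85 in TF. Among the 20 loci at least 8-fold lower in IR64 TF, 8 were at least 4-fold higher in TNG67 TF and none was 4-fold lower. Some loci were thus lower in failed callus of one cultivar and higher in failed callus of the other. A locus needs at least 3 FPKM in TNG67 TS to be 4-fold lower in TNG67 TF on this scale. The median in TNG67 TS was 7.07 FPKM over all loci, so many of the 101 had less room to be lower. The small number of lower loci, and part of the lean, were fixed by that. Of the 101 loci 64 were IR64-high at T2, and the TNG67 TF library also held values at 6 of 23 IR64 loci of the cultivar check. The part of this in the result was not tested. The difference between the cultivars was not tested, as each has 1 library a side.

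**Figure D5:**
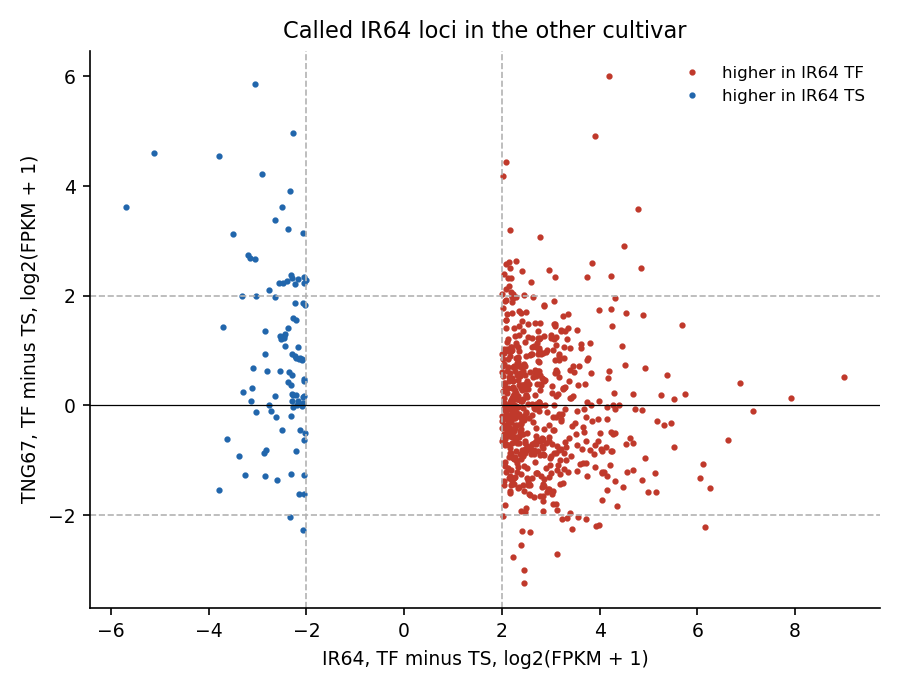
Log2 difference between failed and successful callus in TNG67 (TF minus TS, vertical axis) against that in IR64 (horizontal axis) for the 714 loci at least 4-fold apart in IR64, on the log2(FPKM + 1) scale. Dashed lines mark 4-fold. Red points (higher in IR64 TF) spread about 0 in TNG67 with a median of -0.07, and blue points (higher in IR64 TS) lie mostly above 0 with a median of 0.84.

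TF-high loci occurred on all 12 chromosomes, which the identifiers encode. Their share ran from 1.91% of the loci compared on chromosome 5 to 3.18% on chromosome 10. The TS-high share ran from 0.173% on chromosome 7 to 0.860% on chromosome 4. No chromosome held most of the loci of either group.

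On a finer scale the loci tended to lie side by side. Identifiers are numbered along each chromosome, and for 53 of the 613 TF-high loci (8.65%) the next compared locus was also TF-high, against 2.68% of all loci. For the TS-high loci it was 5 of 101 (4.95%), against 0.441%. There were 9 runs of at least 3 adjacent TF-high loci, with 30 loci in all, on chromosomes 1, 2, 3, 7, 11 and 12. The longest held 4 loci, and the TS-high loci formed pairs only.

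The tallest runs lay on chromosomes 11 and 12. The 4 loci of the first stood at 0.462 to 29.0 FPKM in IR64 TS and 6.30 to 768 in TF. The 3 loci of the second ran from a listed 0 to 19.6 FPKM in TS and from 5.93 to 948 in TF. The ends of these chromosomes are known to share a duplicated segment. Since uniquely aligned reads alone were kept, the split of reads between near-identical copies there is uncertain.

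A run of 4 loci on chromosome 1 stood at 1.01 to 2.96 FPKM in TS and 18 to 69.7 in TF, with 15.2 to 48.1 in the embryo and 11.2 to 75.6 in TNG67 TS and TF. A run of 3 loci on chromosome 3 stood at 1.70 to 20.2 FPKM in TS and 23.6 to 267 in TF, with 29.9 to 432 in the embryo and 12.5 to 206 in TNG67 TS and TF. In these 2 of the 9 runs every locus was embryo-high, and in 4 runs none was. Of the 30 loci in runs, 11 were embryo-high and 12 TNG67-high. Over all TF-high loci the shares were 43.4% and 33.0%, and over all loci 7.99% and 6.07%, so runs were much like other TF-high loci in this. A run of 3 on chromosome 7, at 2.05 to 5.58 FPKM in TS and 25.3 to 54.5 in TF, was at most 0.826 in the IR64 embryo and 2.62 in any TNG67 library.

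A second run of 3 on chromosome 3 moved as a block and in opposite ways in the cultivars. In IR64 its loci stood at 0.204 to 0.532 FPKM in TS and 5.49 to 9.55 in TF. In TNG67 they stood at 2.60 to 10.5 FPKM in TS and 0.199 to 0.693 in TF. That TF stood above TS at each of these loci in IR64 follows from how they were chosen. The TNG67 pair was not part of that ratio. There the log2 difference between TF and TS ran from -2.76 to -1.44, and 2 of the 3 loci passed 4-fold. Both are single libraries, so this was not tested. Of the 30 loci in runs 24 were within 2-fold in TNG67, a share near the 86.7% of all loci.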

How the data were processed

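RNA was measured in 10 libraries, 1 per cultivar and stage. Per the labels' protocols, the authors used FastQC for read quality, Bowtie to align reads uniquely to the Nipponbare (japonica) genome IRGSP-1.0 with up to 2 mismatches, and TopHat for FPKM per gene. Not given in the sources used here are tool versions, gene models, strand and batches. Reads of IR64 that differ from the japonica genome can be lost.

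From the deposited FPKM table (55166 rows), rows of the 968 loci on several rows were summed. The 22913 loci that reached 1 FPKM in 2 or more libraries were compared on log2(FPKM + 1), and a ratio of at least 4, the cutoff in the labels, was counted with no test. Functions were tested on simulated data. Depth is unknown: among 1712 loci up to 0.2 FPKM in both libraries, no bin of ratios held over 1.11%. Analysis used Python 3.11.15, pandas 2.3.3, numpy 2.4.6, scipy 1.17.1 and matplotlib 3.10.9.

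Named loci were, per direction, those of the largest ratio and the largest FPKM difference with at least 10 FPKM in the higher callus. Gene lists and cell type markers could not be matched (0 identifiers in the RefSeq table, assembly ASM3414082v1) and were not used. The loci, lists and rules were chosen with earlier results of these data known. The bisulfite libraries were not used here.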

Additional observations from a re-analysis of the deposited data

Results flagged for a closer look

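In 3 of the 4 named loci and in 1 group the TNG67 pair had a log2 difference of opposite sign to the IR64 pair. Each pair is of single libraries, so this was not tested. Among these loci only LOC_Os01g52060 passed 4-fold in TNG67. LOC_Os01g52060, higher in IR64 TS, had a log2 difference of 3.62 towards TF in TNG67. LOC_Os04g27980, also higher in IR64 TS, had one of 1.42 towards TF in TNG67, at no more than 2.55 FPKM. LOC_Os02g37490, higher in IR64 TF, had a log2 difference of -0.38 between TF and TS in TNG67. The 101 IR64 TS-high loci had a median log2 difference of 0.84 in TNG67, where all loci had -0.08. Their median level of 1.05 FPKM in TNG67 TS left many of them little room to be lower in TF.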

How the results depend on the processing

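The larger number of loci in failed callus held under all 9 alternatives, with 67.3% to 90.9% of called loci higher in TF. Pseudocounts of 0.1 and 5 FPKM gave 1170 and 215 TF-high loci, 418 and 25 TS-high loci and shares of 73.7% and 89.6%. Cutoffs of 2-fold and 8-fold gave 1976 and 200, 958 and 20, and 67.3% and 90.9%. Quantile normalization gave 638 and 143, or 81.7%. The counts stayed within 1.5 times under the other filters, scalings and single-row loci. The share of TF-high loci followed by another became 11.5% at a pseudocount of 0.1, 5.68% without the filter, 14.1% at 2-fold and 6.5% at 8-fold, against 5.11%, 1.20%, 8.62% and 0.873% of all loci. For TS-high loci it was 0 of 25 at a pseudocount of 5. The embryo-high share of TF-high loci ran from 33.3% to 54.0% and their TNG67-high share from 20.5% to 44.0%. The embryo-low share of TS-high loci ran from 30.3% to 60%, and the share higher in TNG67 TF from 11.1% at 2-fold to 40% at 8-fold. These embryo and TNG67 shares were results added after the data were examined. The 4 named loci kept their direction and stayed past 4-fold, although for LOC_Os01g52060, at a listed 0 in TF, the log2 value ran from -3.47 to -8.98 with the pseudocount and is no measure of size. The medians of gene lists were not run. Unknown depth limits the lowest loci most. No paired analysis was possible because each group has 1 library. Leaving out a library would leave no comparison.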
